A study of Mus musculus with 214 samples.

Results

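Livers of wild-type (WT) mice were followed long after a juvenile exposure to N-nitrosodimethylamine (NDMA), a DNA methylating liver carcinogen found as a contaminant of water, food and drugs. Members were chosen by the labels alone, as every WT liver collected at week 10 or month 10 after treatment. They number 39 of the 213 livers in the series. At week 10 there were 8 NDMA and 8 saline mice, and at month 10 there were 13 NDMA and 10 saline mice. NDMA mice had been injected intraperitoneally with 3.5 mg/kg on postnatal day 8 and with a further 7 mg/kg on postnatal day 15, 10.5 mg/kg in all, and control mice with saline. All mice, controls included, were RaDR+/+;GPT+/+ on a C57BL6 background, that is, they carried one reporter for recombination and another for mutation and had an intact Mgmt gene. Transcripts of each liver were sequenced from the 3′ end, primed at the poly(A) tail, and values are counts normalised by size factors. Litters, not single mice, were assigned to NDMA or saline, so litter and treatment cannot be told apart here, and the p-values measure the spread between mice. The labels do not say whether a piece of liver collected at month 10 held tumour.

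NDMA is activated by Cyp2e1, a cytochrome P450 that is densest in the hepatocytes around the central vein, to a species that methylates DNA. The methyl group on the oxygen of guanine is the mutagenic one, and the protein made from Mgmt removes it in a single suicidal step. In the days after exposure the liver is known to raise p53 target genes, which arrest or kill damaged cells, and interferon-stimulated genes, while pericentral metabolic genes are lost. The questions asked of the late livers were which of these early changes had gone back to the saline level, and which differences, if any, were present at both late times.

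Libraries of the 39 mice held between 213007 and 2530968 reads, with a median of 1356230. Library depth was uneven across groups. A female NDMA library of week 10 (270673 reads) and another of month 10 (213007) were the shallowest. At month 10, 2 of the 4 male saline libraries held 462404 and 495868 reads, whereas the median male NDMA library of both times held 1677968. At week 10 each sequencing run held a single sex, so run and sex cannot be told apart there, and at month 10 all 3 runs held both treatments. No libraries were identical. The 10 hepatocyte markers summed to a median of 229742.8 normalised counts in NDMA and 210640.4 in saline livers at week 10, and to 168575.2 and 162373.2 at month 10, and Alb, the gene of serum albumin, was the most abundant. The livers thus carried the markers of their label, and the 5 kidney markers had a median sum of 0 in each group. Of 13 markers of pancreas acinar cells, the 7 in the table, of which Cela1 was the most abundant, had median sums of 181.3 in NDMA and 131.4 in saline livers at week 10 and of 53.5 and 61.9 at month 10, and their part in the results was not tested.

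Differential expression between NDMA and saline mice had largely gone by week 10. With limma at a Benjamini-Hochberg adjusted p below 0.05 and a log2 fold change beyond 0.58 in either direction, 830 of 9028 genes (9.19%) had differed at day 1, 6.23% of genes at day 2 and 3.61% at day 5. At week 10, 2 of 8048 genes (0.0249%) differed, both higher in NDMA livers, while edgeR on the reads called 0 and DESeq2 called 5. Those of limma were 1810053B23Rik, a noncoding transcript, and Sult2a7, a sulphotransferase gene of the family that acts on hydroxysteroids. At month 10, 0 of 9254 genes (0%) differed by limma, 757 had an unadjusted p below 0.05, edgeR on the reads called 0 and DESeq2 called 1, Cyp4a12a, a male-type P450. Fitted with 1 NDMA term over both times, 16 of 8976 genes (0.178%) differed, 14 of them higher (0.156%) and 2 lower. In that fit 730 genes (8.13%) had an unadjusted p below 0.05, and 42.1% of genes lay above 0. The 95% interval of the log2 fold change lay inside -0.58 to 0.58 for 24.6% of genes at week 10, for 32.1% at month 10 and for 51.6% over both times, and for the remaining genes the interval reached past that size.

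Over the 1000 most variable genes, NDMA against saline took 22.9% of the sum of squares within sex and run at day 1, 14.8% at day 2 and 14.7% at day 5. The share was 8.32% at week 10 (p = 0.0429, exact permutation test over all 4900 assignments within runs, one-sided) and 6.62% at month 10 (p = 0.0821, permutation test with 100000 resamples, one-sided). With 5000 genes, the week 10 share was 7.68% and its exact permutation p was 0.161. The numbers of mice differed between times, so the shares are not tested against each other.

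The early response was taken from the WT mice of days 1, 2 and 5 as the 60 genes called higher and the 28 called lower at each of those days, so their early values chose them and are given as description. In each mouse, the mean log2 level of the 60 higher genes was set against the saline mice of the same time and sex. Sequencing run was not taken into account here. Males of month 10 were split unevenly, with 4 NDMA and 3 saline in run 200710Eng and 3 and 1 in run 200803Eng. At week 10 this mean ran from 0.072 through a median of 0.172 to 0.581 in NDMA mice, and from -0.196 through -0.005 to 0.187 in saline mice. At month 10 it ran from -0.004 through 0.431 to 0.98 in NDMA mice and from -0.301 through -0.033 to 0.299 in saline mice. The groups overlapped at both times. The 28 lower genes ran from -0.567 through 0.006 to 0.238 in NDMA mice at week 10, and from -1.041 through -0.169 to 0.167 at month 10, where saline mice ran from -0.192 to 0.176. On the 60 genes the highest saline mouse stood within the NDMA range at day 1 (2.149, where the lowest NDMA mouse was at -0.235, inside the saline range) and day 2 (1.459), and below it at day 5 (1.17, where the lowest NDMA mouse was at 1.291). These mice enter the early fits that chose the list.

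**Figure D1:**
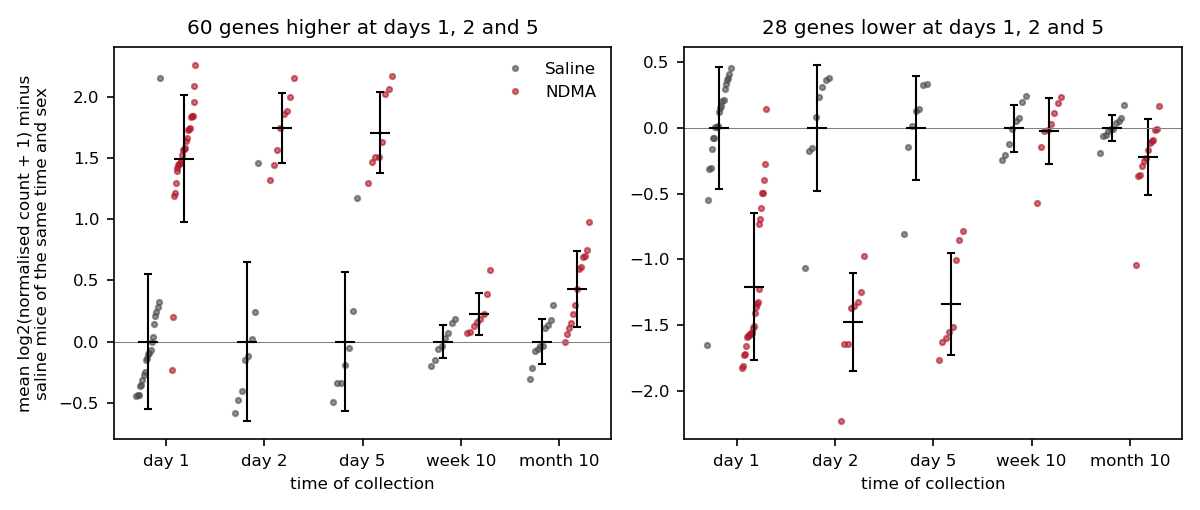
Mean log2(normalised count + 1) of the 60 genes higher (left) and 28 genes lower (right) at days 1, 2 and 5 in each WT mouse, minus the saline mice of the same time and sex, against the time of collection. Points are mice, horizontal bars group means and whiskers SD, and the late NDMA means of the 60 genes were 0.226 at week 10 and 0.431 at month 10.

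Of the 60 early higher genes, 53 were abundant enough to test at week 10, 49 at month 10 and 50 over both. Called higher were 1 at week 10 (1810053B23Rik), 0 at month 10 by limma with 17 at an unadjusted p below 0.05, and 3 over both times (1810053B23Rik, Ifi27l2b and Apol9a), beside 0.156% of all genes called higher over both. Of this list edgeR called 1 over both times (1810053B23Rik), and DESeq2 called the 3 and Snhg15. Their median log2 fold change was 0.05 at week 10 and 0.29 at month 10, beside -0.035 and -0.06 over all genes tested. The same genes had medians of 1.13 and 1.08 at day 1, and the median gene kept 5.2% of its day 1 log2 change at week 10 and 26.7% at month 10. At month 10, 44 of the 49 were above 0 and 5 below. Over both times the median of the list was 0.182, with 0.35 in males fitted alone and 0.076 in females. None of the 28 early lower genes was called by limma over both times, beside 0.0223% of all genes called lower, nor by edgeR or DESeq2. Of the 28, 5 had an unadjusted p below 0.05, beside 8.13% of all genes. Their median was -0.01 at week 10 and -0.23 at month 10, and 24 of 28 lay below 0 at month 10. The 95% interval lay inside -0.58 to 0.58 over both times for 22 of the 50 higher and 21 of the 28 lower genes.

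Whether a late effect was smaller than the effect at day 1 was tested directly over all WT mice. This difference passed an adjusted p of 0.05 for 2.48% of genes against week 10 and 2.14% against month 10. Among the early genes it did so for 23 of the 60 higher genes at each late time, and for 15 and 13 of the 28 lower genes, always toward a smaller late effect, and the day 1 values that chose the genes enter this test.

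Bax, which opens the mitochondrial route to cell death, had a median of 22.6 normalised counts in NDMA and 26.0 in saline mice at week 10, and of 27.5 and 26.1 at month 10. The groups overlapped throughout. Its log2 fold change over both late times was -0.03 (95% interval -0.32 to 0.27), against 1.74 at day 1, and the fall from day 1 was significant at both times (limma adjusted p = 0.000538 against the earlier and 0.000472 against the later time). The day 1 value enters this test, and the list that named Bax was fixed with earlier results of these data known. Ccng1, a p53 target encoding cyclin G1, stood at 0.27 (-0.07 to 0.61) against 2.35 at day 1, and Mdm2, which degrades p53, at 0.06 (-0.46 to 0.59) against 1.61. Phlda3, Eda2r, Cox6b2, Ddit4l and Trp53cor1, early higher genes, were too low for the late test.

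Cdkn1a, which encodes the cell cycle inhibitor p21, stood above the saline level in many mice. At week 10 it ran from 3.5 through 16.9 to 102.7 normalised counts in NDMA mice and from 1.5 through 5.8 to 62.9 in saline mice, and at month 10 from 1.1 through 10.5 to 26.1 and from 0.0 through 3.6 to 7.5. The groups overlapped at both times. Over both times its log2 fold change had a 95% interval of 0.70 to 2.30 and a limma adjusted p of 0.16, and the difference from the day 1 value of 3.28 missed the threshold too (adjusted p = 0.151 and 0.21). In the males of month 10 fitted alone, where NDMA mice ran from 5.0 through 17.3 to 26.1 and saline mice from 0.0 to 5.3, the log2 fold change was 2.62, while in males of week 10 it was 0.03. Male saline mice of month 10 had a mean of 2.0 normalised counts and NDMA mice 16.3. The gene thus passed the filter on low values there through the NDMA mice, and no test is given for it. Among females, 3 of 4 NDMA mice of week 10 and 3 of 6 of month 10 were above every saline female of that time. Among males these counts were 0 of 4 and 6 of 7. Of the p53 targets for arrest and feedback, 13 were tested over both times, 0 were called by limma, edgeR or DESeq2, and 2 had an unadjusted p below 0.05, with a median of 0.062. Of 7 tested death genes, 0 were called by any of these tools, 1 had an unadjusted p below 0.05 and the median was -0.085. Over all genes tested over both times, 0.178% were called by limma, 8.13% had an unadjusted p below 0.05 and the median was -0.045. With lists so short, 0 calls does not show a return to the saline level.

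Among pericentral genes lower at day 1, Cyp2e1, Glul, Slc1a2 and Cyp1a2 had late intervals inside -0.58 to 0.58, whereas that of Oat reached past it and Rhbg was higher late. Cyp2e1 ran from 3531.9 through 5317.2 to 9472.0 normalised counts in NDMA and from 2314.2 through 4881.4 to 8228.5 in saline mice at week 10, and from 1931.7 through 3241.3 to 4893.0 and from 2272.4 through 3199.8 to 4978.5 at month 10. The groups covered nearly the same range. Its late log2 fold change was 0.07 (-0.14 to 0.28), against -2.28 at day 1, and the difference from day 1 passed at both times (adjusted p = 0.00191 and 0.00302). Glul, the glutamine synthetase of the last layer of hepatocytes at the central vein, stood at -0.02 (-0.30 to 0.26) against -1.79 (adjusted p of the difference 0.000212 and 0.000598). Slc1a2, a glutamate transporter of the same cells, stood at 0.03 (-0.23 to 0.29) against -2.59. Cyp1a2, a further pericentral P450, stood at -0.20 (-0.45 to 0.06) against -2.42. Oat, ornithine aminotransferase, stood at -0.16 with a wide interval of -0.65 to 0.33. Cyp2e1, Glul, Slc1a2, Cyp1a2 and Oat were among the largest early changes. The day 1 values behind that choice enter the tests of the difference, which favours a smaller late effect.

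Of the 19 pericentral genes tested over both times, 1 was called by limma and DESeq2 (Rhbg, higher) and 0 by edgeR, beside 0.178% of all genes called by limma, and 12 had intervals inside -0.58 to 0.58, with a median of -0.021. The list lay 14 above and 4 below 0 at week 10 and 4 above and 16 below at month 10, with medians of 0.201 and -0.222, beside -0.035 and -0.06 over all genes. Of the 19 periportal genes, 0 were called by limma, edgeR or DESeq2, 2 had an unadjusted p below 0.05, the median was 0.079 and 15 intervals lay inside those bounds. All 10 hepatocyte markers had intervals inside them, as did 51.6% of all genes tested over both times. An unadjusted p below 0.05 was found for 8.13% of all genes, whose median was -0.045.

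Among interferon response genes tested over both times, the 95% interval lay inside -0.58 to 0.58 for 6 of 9 guanylate binding proteins and GTPases, 8 of 21 type I effectors, 10 of 17 transcription factors, 9 of 15 class I genes, 5 of 7 class II genes and 4 of 10 chemokines. Gbp2, a guanylate binding protein of defence against intracellular pathogens, ran from 1.7 through 13.1 to 27.4 normalised counts in NDMA and from 8.5 through 14.4 to 28.2 in saline mice at week 10, and from 0.0 through 6.7 to 22.7 and from 0.0 through 6.8 to 17.5 at month 10. The groups overlapped throughout. Its late log2 fold change was 0.08 (-0.56 to 0.72) against 2.28 at day 1, and it was smaller than at day 1 at both times (adjusted p = 0.00195 and 0.0425). Here too the day 1 value enters the test, and the gene was named with earlier results known. Among the others, Igtp, an immunity related GTPase, stood at 0.12 (-0.23 to 0.47) and B2m, the light chain of class I molecules, at -0.08 (-0.30 to 0.15). Psmb8, an immunoproteasome subunit, stood at -0.05 (-0.36 to 0.26), and Cxcl9, a chemokine for T cells, at 0.13 (-0.26 to 0.52). In males of month 10, all 7 NDMA mice were above every saline mouse for Cxcl9 and for Cxcl10, another chemokine. The same held in 5 of 7 for Igtp, 4 for B2m and 0 for Psmb8. For both chemokines it held in 0 of 6 females of month 10 and 0 of 4 males of week 10. These counts were not tested. Among the guanylate binding proteins and GTPases, 9 were tested, 0 were called by limma, edgeR or DESeq2 or had an unadjusted p below 0.05, and all 9 lay above 0 with a median of 0.08. Class I genes (15 tested, median -0.049), class II genes (7 tested, median -0.062), interferon transcription factors (17 tested, median -0.06) and chemokines (10 tested, median 0.092) had 0 calls by the same tools, with 3, 0, 2 and 3 members at an unadjusted p below 0.05. Beside these lists, 0.178% of all genes were called by limma, 8.13% had an unadjusted p below 0.05 and the median was -0.045. In lists so short, 0 calls does not show a return to the saline level.

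Of the type I interferon effectors, over both times 21 were tested, 17 lay above 0, the median was 0.231, 5 had an unadjusted p below 0.05 and 1, Ifi27, was called by limma, beside 0.178% of all genes. DESeq2 called Oasl1 too, an oligoadenylate synthetase-like gene that just missed in limma (log2 fold change 0.91 ± 0.22, SE, adjusted p = 0.0625). Ifit1, which binds foreign RNA, stood at 0.23 (-0.10 to 0.56).

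Mgmt, whose level sets how much methylated guanine a cell can repair, ran from 29.5 through 55.0 to 130.0 normalised counts in NDMA and from 20.5 through 35.8 to 55.4 in saline mice at week 10, and at month 10 from 16.2 through 42.3 to 65.7 and from 28.7 through 33.8 to 41.6. The groups overlapped and the late difference was not significant (log2 fold change 0.34, adjusted p = 0.606). Of 16 tested genes that repair NDMA lesions, 0 were called by limma, edgeR or DESeq2, 3 had an unadjusted p below 0.05 and the median was -0.175. The same limma fit called 0.178% of all genes, with 8.13% at an unadjusted p below 0.05 and a median of -0.045.

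Other genes called higher at day 1 had positive estimates over both times that missed the threshold in limma. Ly6d, a surface antigen, had a log2 fold change of 1.49 (adjusted p = 0.138, though DESeq2 called it), Tff3, a secreted trefoil peptide, of 1.74 (0.16), and Ubd, an interferon-inducible ubiquitin-like modifier, of 1.28 (0.163). In Tff3 the week 10 estimate was 3.03 and that of month 10 was 0.80. Nxpe2, an early lower gene, stood at -0.84 (adjusted p = 0.297).

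The 16 genes called by a single NDMA term over both times are named the residue. That term does not require a difference at each time. Taken alone, 2 of them were called at week 10 (1810053B23Rik and Sult2a7) and 0 at month 10, and Cidea and 5031425E22Rik were too low to test at week 10. In the males of month 10 fitted alone, 44 of 9058 genes (0.486%) were called, 7 of the 16 among them. Of these, Sult2a7, Dct, Ifi27, Ifi27l2b and Rhbg had male saline means above the filter on low values, and 1810053B23Rik and Cidea below it. In females of month 10, 0 were called. The fits of each time and of each sex use the same mice as the fit that called them, so their values below are a breakdown of it and not a repeat. How many of all genes have groups that lie apart was not counted, so such gaps are given below as description. Each of the 16 had the same sign in every combination of time and sex in which it was abundant enough to be tested (all 4 for 13 genes, 2 for Sult1e1 and 5031425E22Rik and 1 for Cidea). In males fitted alone 0.352% of all genes were called, and in females 0%. None of the 8976 genes had a treatment effect that differed between week 10 and month 10 (0% by limma, with 464 genes at an unadjusted p below 0.05, and 0 genes by edgeR). Just inside the threshold were Fhit, Mup9, Apol9a and Cyp2a4 (adjusted p = 0.0417), and just outside were Oasl1 (0.0625), Plekhb1 (0.0793), Eif4e3 (0.0872) and Ednrb (0.0946).

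**Figure D2:**
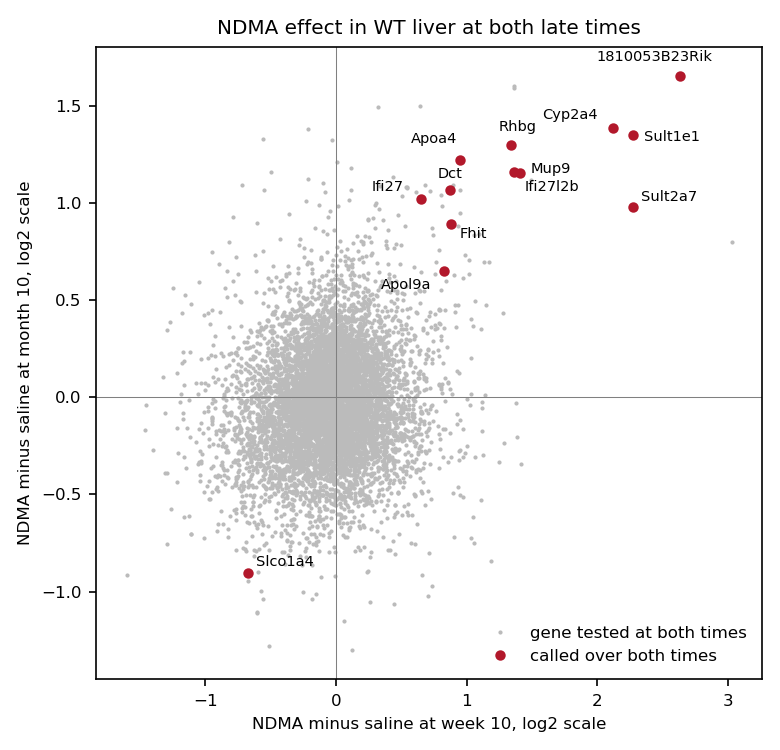
Log2 fold change of NDMA against saline at week 10 (horizontal) and month 10 (vertical), 1 point per gene tested at both times. The 13 called genes marked in red lie in the upper right, apart from Slco1a4 in the lower left, and Cidea and 5031425E22Rik are missing because they were too low to test at week 10.

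Ifi27, Ifi27l2b and Apol9a are described together because each is known as interferon-inducible or belongs to such a family, a grouping made after the calls. Ifi27 encodes a mitochondrial protein induced by type I interferon, and Ifi27l2b, a gene of the same family, lies 10659 bases away on chromosome 12 (Ifi27 at chr12:103434211-103440239, plus strand, Ifi27l2b at chr12:103450898-103457223, minus strand, GRCm38), and as members of one family they may share reads. Ifi27 ran from 591.3 through 784.3 to 999.3 normalised counts in NDMA and from 331.1 through 518.3 to 608.3 in saline mice at week 10, and from 176.6 through 318.7 to 724.1 and from 76.9 through 136.9 to 337.7 at month 10. At week 10, 7 of the 8 NDMA mice were above every saline mouse, and at month 10, 4 of 13. Over both times it had a log2 fold change of 0.87 ± 0.16 (SE, limma adjusted p = 0.00764), and edgeR and DESeq2 called it as well. Ifi27l2b had medians of 54.5 and 22.5 at week 10 and of 50.0 and 25.3 at month 10, with overlap in both, and a log2 fold change of 1.24 ± 0.25 (adjusted p = 0.0177).

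Apol9a, an apolipoprotein L gene induced by interferon whose close copy Apol9b may share its reads, ran from 58.4 through 88.4 to 164.3 in NDMA and from 29.1 through 47.3 to 77.3 in saline mice at week 10, and from 43.8 through 77.5 to 123.6 and from 19.2 through 49.9 to 79.1 at month 10. At week 10, 6 of 8 NDMA mice were above every saline mouse. Its log2 fold change over both times was 0.73 ± 0.16 (adjusted p = 0.0417). Its promoter is shown because, of the 10 residue genes with an entry in the RefSeq promoter table, it alone held the letters of an interferon-stimulated response element, GAAA, any 2 bases, GAAA, on either strand. The window is chr15:77411031-77411330 on the minus strand (GRCm38.p6), and capitals mark a pair of overlapping matches on the opposite strand that start at -59 and -53 from the gene's start:
Apol9a: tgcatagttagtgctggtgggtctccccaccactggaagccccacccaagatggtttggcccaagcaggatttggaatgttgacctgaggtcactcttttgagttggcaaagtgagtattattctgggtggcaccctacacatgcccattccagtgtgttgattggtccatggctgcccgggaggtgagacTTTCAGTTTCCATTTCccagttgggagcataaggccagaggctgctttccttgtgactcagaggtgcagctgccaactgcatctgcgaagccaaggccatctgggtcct

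The motif was found in 3.44% of 32851 promoter windows of the same length. Among the other 6, Ifi27, Ifi27l2b, Sult2a7, Rhbg and Cidea had no entry in the table. A match is a description of letters, not a site.

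Sulphotransferase and P450 genes are given next. Sult1e1, oestrogen sulphotransferase, ran from 3.4 through 11 to 41.1 normalised counts in NDMA and from 0.0 through 1.4 to 13.3 in saline mice at week 10, and from 1.1 through 5.6 to 58.5 and from 0.0 through 1.6 to 12.6 at month 10. The male groups did not overlap at either time, but the gaps were narrow. The lowest male NDMA mouse and the highest male saline mouse had 3.4 and 2.9 at week 10 and 1.7 and 1.1 at month 10. Male saline mice of month 10 held 1 Sult1e1 read in all. The difference over both times was 1.74 ± 0.33 on the log2 scale (SE, adjusted p = 0.00867), a value that depends on the pseudocount at such low counts (0.91 with 5 in place of 1). Its saline means were 2.7 at week 10 and 3.3 at month 10, under the filter of 5, so it was tested only because NDMA mice were higher, and its p-value is to be read with that in mind.

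Sult2a7, whose reads may be shared with its neighbours in the Sult2a family, had 22.7, 35.1, 40.6 and 64.0 normalised counts in the male NDMA mice of week 10 and 2.8, 3.0, 3.3 and 4.9 in the male saline mice. At month 10 male NDMA mice ran from 11.8 through 20.9 to 49.7, and the male saline mice had 2.9, 3.2, 8.0 and 8.4. Every one of the 11 male NDMA mice was above each of the 8 male saline mice. Females carried far more, from 136.6 through 316.2 to 751.8 in NDMA and from 78.3 through 292.7 to 751.3 in saline mice at month 10, and their groups overlapped. Over both sexes and times the log2 fold change was 1.52 ± 0.28 (adjusted p = 0.00867).

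Cyp2a4 is a steroid hydroxylase gene whose near copy Cyp2a5, on the same chromosome, may share its reads. Cyp2a5 was itself called in males fitted alone (log2 fold change 0.87, limma adjusted p = 0.00276) and stood at -0.24 in females. Whether reads were shared was not tested. Cyp2a4 had 9.1, 13.7, 21.9 and 24.5 normalised counts in the male NDMA mice of week 10 and 0.0, 0.0, 0.0 and 1.1 in the male saline mice. At month 10 male NDMA mice ran from 21.6 through 36.9 to 54.2, and male saline mice had 0.0, 1.6, 9.5 and 18.9. The male groups did not overlap at either time. Females stood at 500.8 through 799.7 to 1134.3 in NDMA and 510.1 through 665.9 to 1036.6 in saline mice at month 10. Over both sexes its log2 fold change was 1.70 ± 0.37 (adjusted p = 0.0417).

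Next come genes of lipid handling. Cidea, a lipid droplet protein that enlarges droplets and is abundant in brown fat and in fatty liver, had 0 of 11607622 reads in the 8 saline mice of week 10, which allows up to 3 reads (counting error only). The male NDMA mice of week 10 had 1.7, 3.1, 4.1 and 12.2 normalised counts. At month 10 male NDMA mice ran from 3.5 through 18.9 to 77.5, and the male saline mice had 0.0, 0.0, 0.0 and 3.2, the last in a shallow library. The 7 male NDMA mice of month 10 held 245 Cidea reads of 11942604, and the 4 male saline mice held 1 of 3057385. No female of either group and time exceeded 1.7. Cidea passed the filter on low values through the male NDMA mice, and its log2 fold change over both sexes, 1.70 ± 0.37 (adjusted p = 0.0366), fell to 0.82 with a pseudocount of 5 (adjusted p = 0.132).

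Apoa4, an apolipoprotein of lipid export, had medians of 58.8 in NDMA and 30.3 in saline mice at week 10 and of 178.4 and 60.7 at month 10. The groups overlapped at both times, with 3 NDMA mice above every saline mouse in each, and at month 10 saline mice reached 231.0 and 205.9. Apoa4 had a log2 fold change of 1.11 ± 0.23 (SE, adjusted p = 0.0185). Of 11 lipid droplet genes tested over both times, 2 were called higher (Cidea, which passed the filter only through NDMA mice, and Apoa4), 10 lay above 0 and the median was 0.452, beside 0.156% of all genes called higher and an all-gene median of -0.045. Of this list edgeR called Cidea alone, and DESeq2 called Fabp4 too.

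Rhbg, the ammonium transporter of pericentral hepatocytes, had gone the other way at first. It was lower in NDMA mice by 1.47 on the log2 scale at day 1 and by 2.68 at day 2, while the value of -1.02 at day 5 did not pass (adjusted p = 0.218). At week 10 it ran from 13.9 through 19.6 to 68.4 normalised counts in NDMA and from 1.4 through 9.0 to 22.1 in saline mice, and at month 10 from 9.9 through 21.9 to 58.5 and from 1.6 through 11.7 to 24.0. The highest NDMA mouse of week 10 was the shallow library, in which the value rests on 10 reads. The late log2 fold change was 1.32 ± 0.27 (SE, adjusted p = 0.0185). Rhbg overlaps an annotated protein-coding model, Gm38392, on the same strand, with which it may share reads.

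Dct, dopachrome tautomerase, best known from melanin synthesis, had 67.2, 68.0, 69.9 and 76.7 normalised counts in male NDMA and 19.6, 21.0, 28.4 and 34.2 in male saline mice at week 10. At month 10 male NDMA mice ran from 16.8 through 25 to 55.6, and male saline mice had 5.8, 6.3, 8.0 and 8.4. The male groups were apart at both times, while the female groups overlapped. Over both sexes Dct had a log2 fold change of 0.98 ± 0.17 (adjusted p = 0.0028), and it was called by edgeR and DESeq2 as well.

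Mup9 belongs to the major urinary proteins, pheromone carriers whose genes are nearly identical, so its counts cannot be fully assigned. The male NDMA mice of week 10 had 468.7, 567.7, 607.3 and 677.7 normalised counts against 38.3, 98.9, 245.1 and 336.3 in male saline mice. At month 10 the male NDMA median was 163.3 and the male saline median 41.6, with overlap. Over both sexes Mup9 had a log2 fold change of 1.26 ± 0.28 (adjusted p = 0.0417). Fhit, a diadenosine triphosphatase gene at a fragile site, had medians of 28.4 and 19.6 at week 10 and of 14.1 and 6.6 at month 10, and a log2 fold change of 0.89 ± 0.20 (adjusted p = 0.0417). It overlaps Fhitos and other antisense models, and also same-strand models such as Gm48438, with which it may share reads. Apoa4, Cidea, Cyp2a4 and Dct overlap opposite-strand models, and 5031425E22Rik overlaps models on both strands. The use of strand in counting is not given in the sources used here.

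The most significant gene was 1810053B23Rik, a processed transcript with no known product at chr16:93342504-93366668 (minus strand, GRCm38). Male saline mice had 0.0, 0.0, 0.0 and 1.0 normalised counts at week 10 and 0.0, 0.0, 1.6 and 4.2 at month 10. Male NDMA mice had 13.2, 14.3, 15.7 and 21.4 at week 10 and ran from 5.9 through 13.4 to 25.9 at month 10. All 11 male NDMA mice were above the 8 male saline mice. Female NDMA mice had 22.5, 22.6, 41.1 and 47.7 against 4.6, 9.1, 12.7 and 26.7 in female saline mice at week 10, and medians of 14.3 and 7.3 at month 10, with overlap at both times. Over all mice the log2 fold change was 2.07 ± 0.30 (SE, adjusted p = 0.000169), after 1.83 at day 1, 1.54 at day 2 and 1.42 at day 5.

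Both genes that were lower had low or moderate counts. Slco1a4, an organic anion transporter, had medians of 35.6 in NDMA and 48.7 in saline mice at week 10, with overlap, and of 66.2 and 103.5 at month 10, where 11 of 13 NDMA mice were below every saline mouse. Slco1a4 had a log2 fold change of -0.81 ± 0.18 (adjusted p = 0.0372). The noncoding RNA 5031425E22Rik (chr5:23382308-23434269, minus strand, GRCm38) passed the filter on low values only through the saline mice. It ran from 0.0 through 0.0 to 2.6 in NDMA and from 1.4 through 3.9 to 5.5 in saline mice at week 10, and from 1.8 through 3.7 to 13 and from 3.6 through 12.2 to 25.2 at month 10. Its log2 fold change was -1.24 ± 0.26 (adjusted p = 0.0185).

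**Figure D3:**
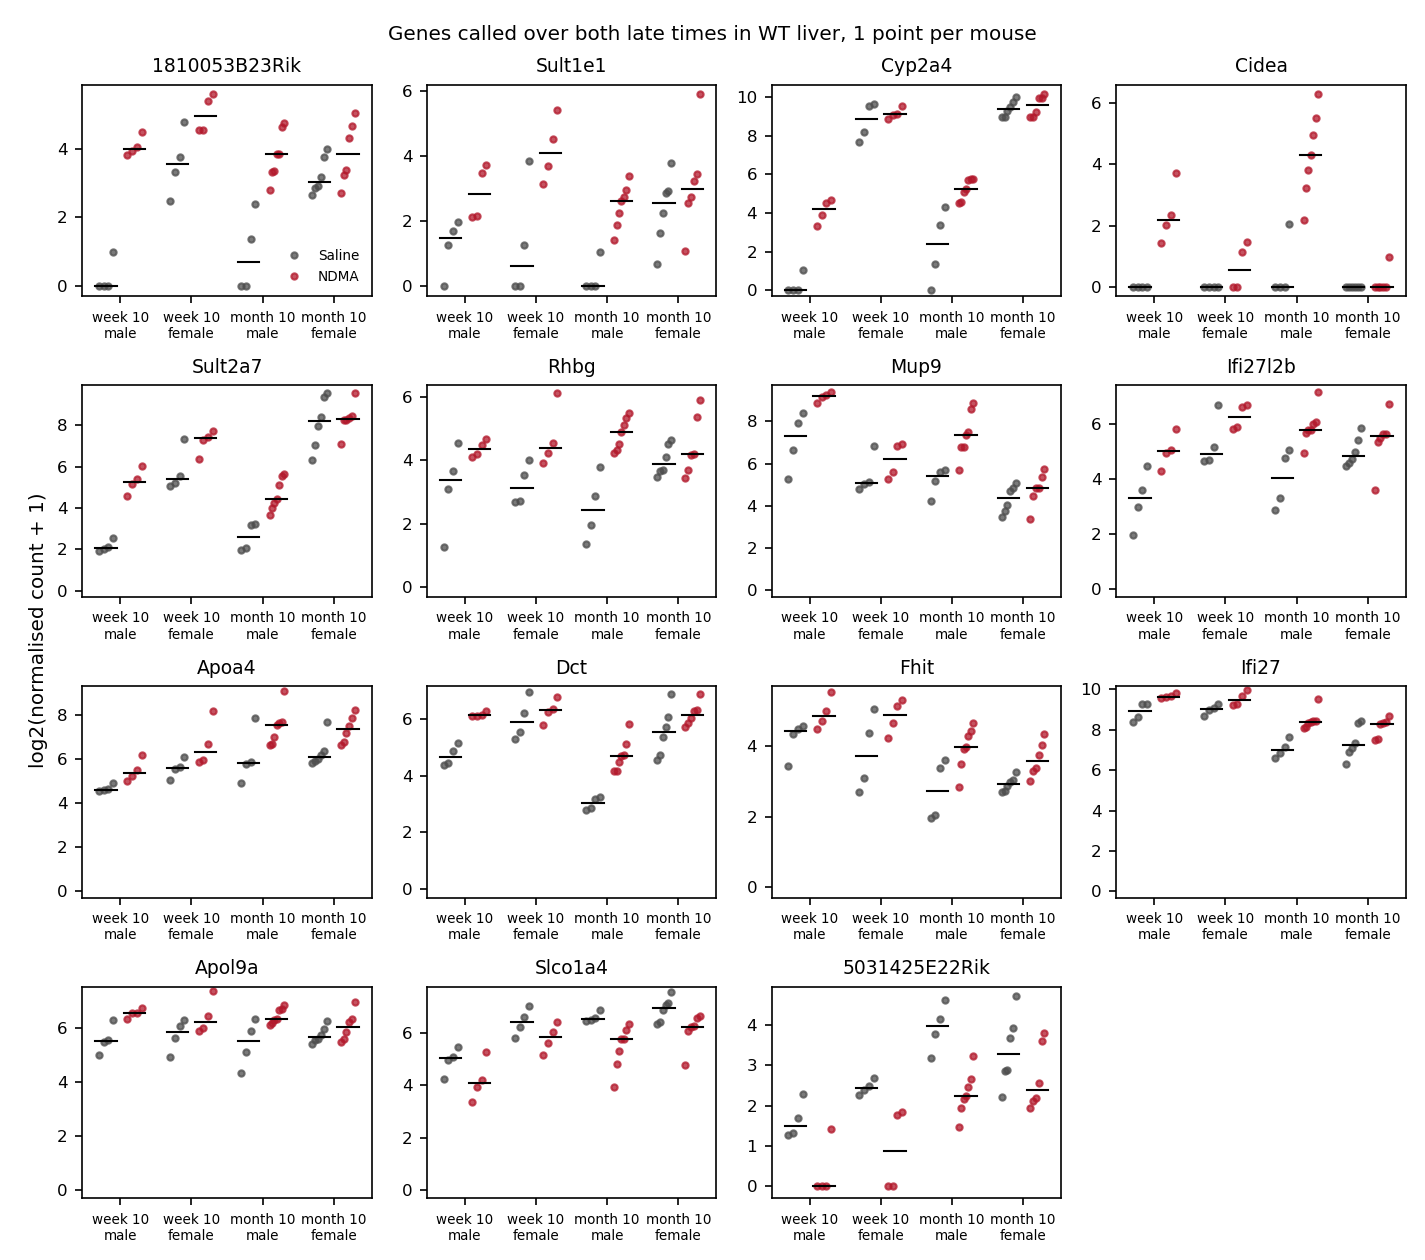
Log2(normalised count + 1) of 15 of the 16 genes called over both late times, 1 point per mouse, by time and sex, with saline in grey, NDMA in red and a bar at each group's median. Male NDMA and male saline mice are apart at both times in 1810053B23Rik, Sult1e1, Cyp2a4, Cidea, Sult2a7, Dct and Ifi27, while female groups overlap in these genes. The same mice called these genes, so the gaps are a description, and in Sult1e1 they were narrow.

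Markers of other cells of the liver were set beside the residue. Of all genes tested over both late times, 42.1% lay above 0 and the median was -0.045. Limma called 0.178% of them, and 8.13% had an unadjusted p below 0.05. The red cell list (8 genes, 5 tested) lay below saline in all 5, with a median effect of -0.657 on the log2 scale, 0 calls by limma, edgeR or DESeq2 and 4 at an unadjusted p below 0.05. Its summed level ran from 2477.8 through 4658.9 to 9460.1 in NDMA and from 4724.4 through 6604.4 to 13920.2 in saline mice at week 10, and from 539.8 through 2123.4 to 4432.3 and from 1609.1 through 2384.8 to 11700.1 at month 10, with Hbb-bs, a beta globin gene, the most abundant. Kupffer cell markers (12 tested, median 0.104, most abundant Cd5l) had median sums of 751.7 in NDMA and 842.9 in saline mice at week 10 and of 360.9 and 430.6 at month 10. Markers of recruited macrophages (6 tested, median 0.097), sinusoidal endothelium (11, 0.008) and stellate cells (9, -0.253) had 0 calls by the same tools, with 0, 1 and 3 at an unadjusted p below 0.05. Their part in the residue was not tested. In bulk liver, fewer cells of a type and less RNA per cell cannot be told apart.

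The sexes were also fitted apart. Fitted in males alone, 31 of 8808 genes (0.352%) differed over both late times, 29 of them higher (0.329%). In females alone 0 of 9032 genes (0%) were called by limma, and 389 had an unadjusted p below 0.05. The fits held 8 saline and 11 NDMA males and 10 saline and 10 NDMA females. The treatment effect itself differed between the sexes for 1 gene (0.0111% of 8976), Cyp2a4, whose effect was larger in males by 3.10 on the log2 scale (adjusted p = 0.00479). In males its effect was 3.33 ± 0.42 and in females 0.24 ± 0.24. In the fit of males, Cyp2a4, 1810053B23Rik, Sult2a7 and Cidea had saline means under the filter of 5, so they were tested there only because NDMA males were higher. With edgeR the interaction called Bcl6, a repressor of female-type genes in male liver, in place of Cyp2a4 (-4.11 on the log2 scale, adjusted p = 0.00948).

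Bcl6 was named after its values were seen. Male saline mice had a median of 5.6 normalised counts at week 10 and of 26.1 at month 10, though 1 of the 4 was at 0.0 at each time, and male NDMA mice ran from 0.0 to 1.7 and from 0.6 to 6.7. Female NDMA mice were not below female saline mice, with medians of 9.1 and 3.0 at month 10. The log2 fold change in males was -1.66 ± 0.60 (limma adjusted p = 0.211).

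For the other residue genes the difference between the sexes did not pass, among them 1810053B23Rik (3.29 in males and 0.97 in females, adjusted p of the difference 0.0834) and Cidea (adjusted p 0.0834), which was too low to fit in females. Apoa4 (1.16 and 1.06), Fhit (0.94 and 0.84) and Slco1a4 (-0.90 and -0.72) had log2 fold changes of like size in both sexes.

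**Figure D4:**
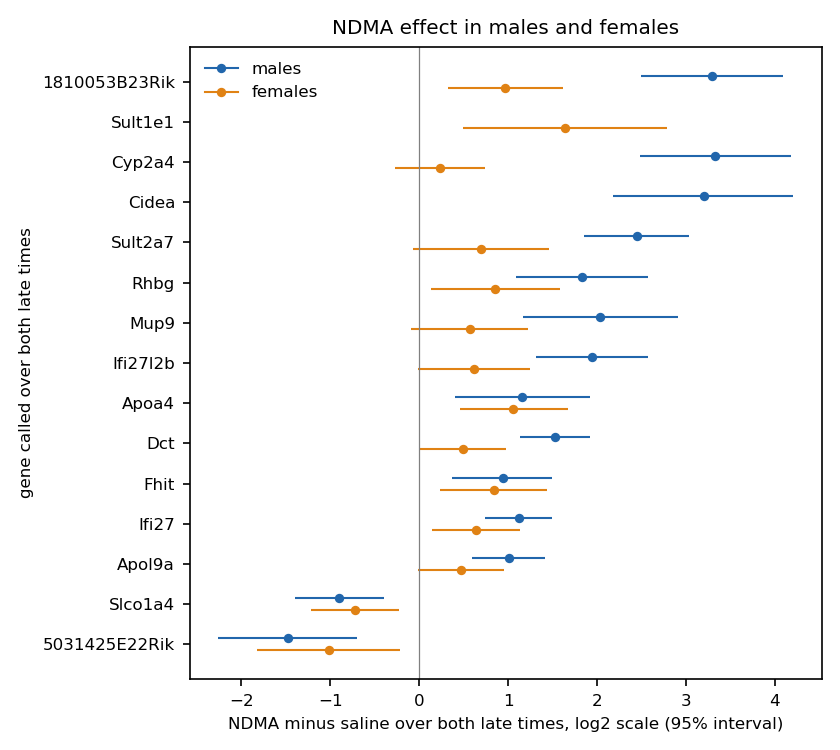
Log2 fold change of NDMA against saline over both late times (points, with 95% intervals) for 15 of the 16 residue genes fitted in males (blue) and females (orange). Cyp2a4 stands at 3.33 in males and 0.24 in females, Sult1e1 was too low to fit in males and Cidea in females.

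Among the genes called in males and not over both sexes were Ly6d (log2 fold change 2.68, adjusted p = 0.0123), Orm3 (1.64, 0.00295), an acute phase orosomucoid gene, Cyp17a1 (1.58, 0.0105), the steroid 17 hydroxylase and lyase gene, Serpinb1a (1.14, 0.0412), a protease inhibitor gene, Cyp2a5 (0.87, 0.00276) and the nonclassical class I gene H2-T23 (0.77, 0.0123), of which all but Ly6d were named after their values were seen. For Orm3, male NDMA mice ran from 15.7 through 19.5 to 22.9 and male saline mice from 2.8 through 9.1 to 14.7 at week 10, and from 15.9 through 24.0 to 51.4 and from 3.2 through 6.3 to 8.8 at month 10. The male groups did not overlap at either time. Cyp17a1 had male medians of 17.6 and 5.7 at week 10 and of 28.2 and 7.1 at month 10, and its male groups overlapped.

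How these genes differ between the sexes was read from the saline adults of the other genotype, Mgmt-/- mice, in which 4.2% of genes were called between females and males. Of the 31 genes called in WT males, 6 were higher in those females, 2 were higher in those males (Mup9 by 2.73 and Coq7 by 1.47) and the others were called in neither direction. Cyp2a4 was higher in those females by 5.74 on the log2 scale, Sult2a7 by 4.05, Orm3 by 2.56, Cyp17a1 by 2.44, Serpinb1a by 2.03 and Dct by 1.58. Of the 222 genes higher in those females, 178 were tested in WT males and 6 of them were called higher after NDMA. Over all genes 0.329% were called higher. The median log2 fold change of the 178 was 0.174, beside -0.013 over all genes. Among the 6, Cyp2a4 and Sult2a7 passed the filter on low values there only through the NDMA mice. The count and the median are therefore given as description. Of the 188 genes higher in those males, 184 were tested, 2 were called higher (Coq7 and Mup9) and the median was -0.01. Of 16 female-biased liver genes, 5 were abundant enough to test in WT males, 3 above 0 and 2 below, with a median of 1.46. Called higher among them were Cyp17a1 and Cyp2a4, the latter tested only through the NDMA mice. On a list of 14 male-biased liver genes, 0 were called in WT males over both times by limma and 2 had an unadjusted p below 0.05. In that fit 0.352% of all genes were called and 13.5% had an unadjusted p below 0.05. Among these 14, 10 lay below 0 and the median was -0.194. At month 10 alone Cyp4a12a of that list was higher in males (0.71 ± 0.16, SE, adjusted p = 0.0436).

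Depth was also uneven between the treatments in males, and the 2 shallow male saline libraries of month 10 are among only 4 male saline mice there. Without them 8 of the 16 genes were called over both sexes (among them 1810053B23Rik, Apoa4, Apol9a, Dct, Ifi27, Sult1e1 and Sult2a7) and 16 genes in males in place of 31. With log2 reads as a term, the 31 calls in males became 8. Leaving out 1 male saline mouse of month 10 (D209049, the only one of its run) left 5 genes, and leaving out another (D202026, a shallow one) left 6. Without time, sex and run in the fit none of the 16 was called. With each of the 39 mice left out in turn, 1810053B23Rik, Dct, Ifi27 and Sult2a7 were called every time, whereas Cidea was called in 25 of 37 fits, and Slco1a4 in 23, Mup9 in 15, Cyp2a4 in 14, Apol9a in 12 and Fhit in 10 of 39. Sult1e1 was called every time too, but like Cidea it was tested only because NDMA mice were higher.

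The month 10 effects were also fitted within each sequencing run, of which the first held males, the second females and the last both sexes. Ifi27 had log2 fold changes of 1.10, 0.94 and 1.03 in these runs, and Apoa4 of 1.53, 0.90 and 1.29. For 1810053B23Rik they were 3.69, 0.98 and 0.43, and for Cyp2a4 4.03, 0.08 and 0.29, so these depended most on the run of males. Sult2a7 stood at 1.86, -0.48 and 1.78. The last run held a single male saline mouse, so sex cannot be resolved within it.

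The residue genes had different histories. Of the 16, 6 had been higher at day 1 by the test (1810053B23Rik, Cyp2a4, Ifi27l2b, Apoa4, Apol9a and Ifi27), Rhbg and Slco1a4 had been lower, and Cidea, Sult2a7, Mup9, Dct, Sult1e1 and 5031425E22Rik were too low to test at that age. Cyp2a4, at 1.83 on day 1, was at 0.31 on day 2 and 0.29 on day 5. Fhit (-0.44) was not called at day 1.

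Mgmt-/- mice, which lack the protein that takes the methyl group off guanine, had far more called genes late. There, 17.7% of genes differed at day 1, 11.2% at week 10 and 7.74% at month 10. Of the 162 genes higher at all 3 of these times in Mgmt-/- mice, the median log2 fold change was 1.58 at week 10 and 1.22 at month 10, against 0.05 and 0.29 in WT mice. In WT, 132 of them were tested over both late times and 3 were called (Apoa4, Ifi27 and Ifi27l2b), beside 0.156% of all genes called higher, while edgeR called 1 of the list and DESeq2 7. Their WT median over both late times was 0.175, with 0.345 in males fitted alone and 0.014 in females. The difference between genotypes, fitted on the reads of both tables with edgeR, passed for 91 of 132 of them at week 10 and for 19 of 127 at month 10, beside 5.71% and 0.868% of all genes, and each of these was larger in Mgmt-/- mice. The genes were chosen on the values of these Mgmt-/- mice, so the counts and the direction are given as a description and nothing is read from them against the shares of all genes. Of the 63 genes lower at the same times, the difference passed for 38 at week 10 and 12 at month 10, and Slco1a4 was the one called in WT.

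**Figure D5:**
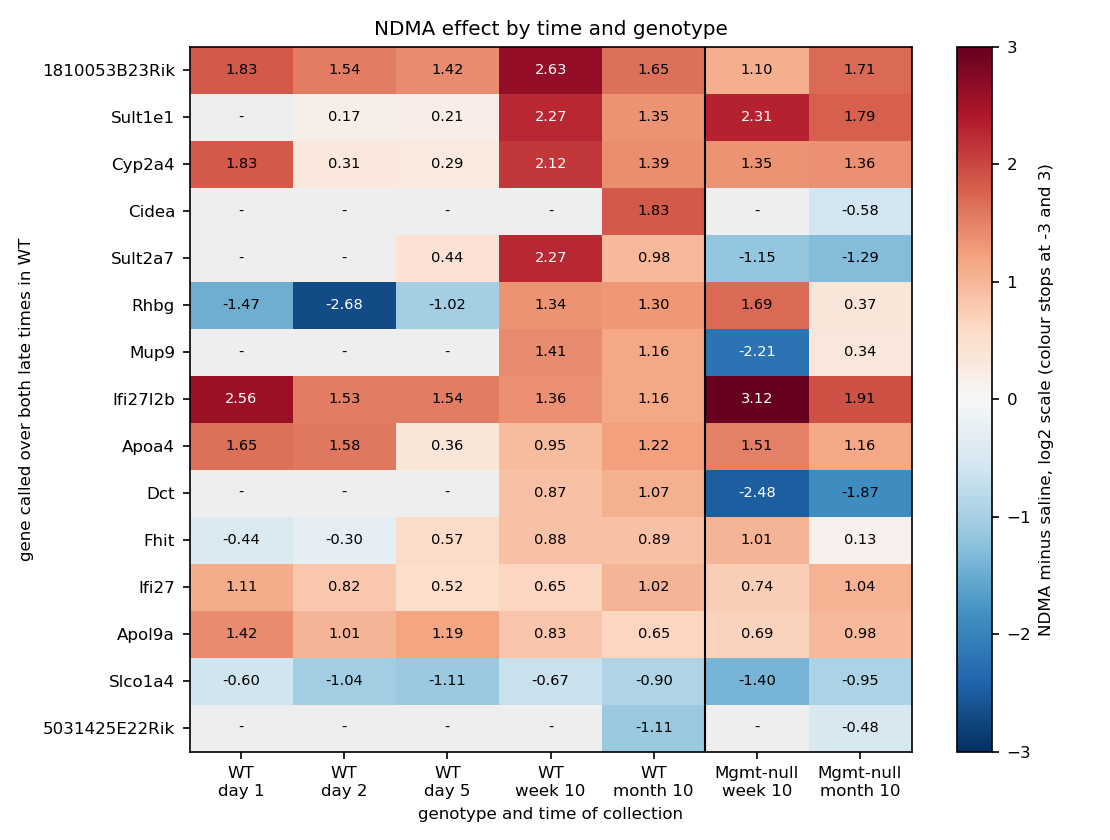
Log2 fold change of NDMA against saline for 15 of the 16 residue genes at 5 times in WT and at both late times in Mgmt-/- (Mgmt-null) livers, with a dash where a gene was too low to test. Rhbg turns from -1.47 at day 1 to 1.34 at week 10, and Dct is higher in WT but lower in Mgmt-null livers at both late times.

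Ifi27 and Apoa4 were higher in both genotypes. Ifi27 had log2 fold changes of 0.74 and 1.04 in Mgmt-/- mice at week 10 and month 10, and of 0.65 and 1.02 in WT mice. Ifi27l2b was higher in Mgmt-/- mice by 3.12 and 1.91, and the difference from WT passed at week 10 (2.06, edgeR adjusted p = 0.00135). Dct went in opposite directions, being lower in Mgmt-/- mice by 2.48 and 1.87 on the log2 scale, with genotype differences of -3.63 (adjusted p = 0.000457) at the earlier and -2.53 (0.00324) at the later time. Sult2a7 (-2.98, adjusted p = 0.0197) and Mup9 (-4.28, 0.0169) differed from WT in the same direction at week 10 by edgeR. DESeq2 gave Sult2a7 an adjusted p of 0.0011 and Mup9 none. The genotype tables were normalised separately, so only effects within each genotype were compared.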

How the data were processed

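The authors extracted total RNA from up to 30 mg of liver, made poly(A)-primed 3′ digital gene expression libraries with molecular identifiers, aligned reads with STAR to GRCm38/mm10, counted them with ESAT and deposited signal values, namely counts divided by DESeq2 size factors, in a separate table for each genotype. Whole reads were recovered for 209 of 213 columns, all 39 late WT columns included, and used for depth, edgeR and DESeq2. 1 of 214 labels had no column and was not analysed here. No column of values was left unused. Normalised counts (mean of at least 5, log2 with a pseudocount of 1) were fitted with limma 3.58.1 (trend, robust) in R 4.3.3, with sex and run as terms in each time, and strata of time, sex and run with 1 NDMA term for both times. Calls needed a Benjamini-Hochberg adjusted p under 0.05 and, except for differences of effects, a log2 fold change beyond 0.58. Differences between genotypes were fitted on reads with edgeR 4.0.16. DESeq2 1.42.0 was an alternative. The fits were tested on simulated data. Named genes were those called late, the 5 smallest p in each direction over both times, the 10 largest early changes in each direction among genes called at days 1, 2 and 5, 5 in each direction called at every time in Mgmt-/- mice, the most abundant gene of each marker list and a fixed list of response genes; any other was named after its values were seen. Of the 16 genes called over both late times, 1 is not reported here by name. The members and lists were chosen with earlier results of these data known. Reads per library, 213007 to 2530968 in the late WT mice, limit low genes most.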

Additional observations from a re-analysis of the deposited data

Results flagged for a closer look

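Among 54 groups of 4 to 10 mice, 3 held a mouse far from the others, where chance gives about 1 in 20. Cidea was at 3.2 normalised counts in 1 saline mouse of month 10 and at 0 in the others, and that mouse was a shallow male library with a single Cidea read. A female NDMA mouse of week 10, the library of 270673 reads, was highest for Rhbg (68.4 normalised counts) and lowest for the mean of the 28 early lower genes (-0.567).

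Effects of NDMA that differed between groups by a test of the difference were these. Cyp2a4 was raised more in males than in females, by 3.10 on the log2 scale (limma adjusted p = 0.00479). Between genotypes, as Mgmt-/- minus WT by edgeR on the reads, the difference was -6.78 for Cidea at month 10 (adjusted p = 0.0176, and -3.89 with an adjusted p of 0.21 by DESeq2, a gene that passed the filter on low values in WT only through NDMA males), -3.63 for Dct at week 10 and -2.53 at month 10, 2.06 for Ifi27l2b, -4.28 for Mup9 and -2.98 for Sult2a7, the last 3 at week 10.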

How the results depend on the processing

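None of the 16 genes called over both times changed sign in the alternatives in which it was tested, whereas of the 31 genes called in males, 22 had the same sign in females, 8 the opposite, among them H2-T23 (-0.70) and Cyp2a5 (-0.24), and 1 was not tested there. Within the run of females the month 10 value of Sult2a7 was -0.48, and the median over all genes moved from -0.045 to 0.003 without libraries under 300000 reads. At week 10, where 2 genes were called, a mean of at least 20 gave 1, edgeR 0, DESeq2 5, no covariates 0, males alone 11 and females alone 0, and leaving out each mouse gave 0 to 3. At month 10, with 0 called, DESeq2 gave 1, males alone 44, and leaving out each mouse 0 to 1. Of the 16 calls over both times, a mean of at least 20 gave 10, edgeR 7, DESeq2 36, log2 reads as a term 25, no covariates 0, males alone 31 and females alone 0, and the 2 shallow male saline libraries left out gave 8, an alternative chosen after seeing the data. All 16 were called by DESeq2 and with log2 reads as a term, and 7 by edgeR. Leaving out each mouse gave 5 to 22, with 10 or fewer without D202017, D202019, D202020, D202021, D202023, D202026, D202030, D209049, D209050, D215018 or D215026. In males alone (31), DESeq2 gave 69, log2 reads 8, the 2 shallow libraries left out 16 and leaving out each mouse 12 to 47. The difference between genotypes at month 10, with 80 genes by edgeR, took in 198 by DESeq2. With 5000 genes the week 10 share of the sum of squares was 7.68%. The causes were not tested. A pseudocount of 5 gave 15 calls over both times, 0.5 gave 16, no filter on low values 13, scaling to the same total 12, and leaving out libraries under 300000 reads 16, of which 11 were shared. No paired analysis was possible because the labels give the groups no shared replicate numbers. Depth limits genes of few reads, such as Cidea, Sult1e1 and 5031425E22Rik, whose fold changes depend on the pseudocount.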

Other observations

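Of 14 tested P450 genes that xenobiotic receptors control, 1 was called over both late times by limma and DESeq2 (Cyp2a4, higher) and 0 by edgeR, beside 0.178% of all genes called by limma, and the median was -0.048. The lists that follow held 0 calls over both late times by limma and edgeR. Over all genes tested at month 10, 8.18% had an unadjusted p below 0.05, 41.4% lay above 0 and the median was -0.06. Over all genes tested at week 10, 45% lay above 0 and the median was -0.035. Acute phase genes, secreted by hepatocytes in inflammation, had a median log2 fold change of 0.005 at week 10 (11 of 20 above 0) and of 0.359 at month 10, where all 19 tested lay above 0 and 9 had an unadjusted p below 0.05. DESeq2 called Orm3 of this list over both times. At month 10 Saa1, the serum amyloid gene of that list, ran from 122.5 through 251.4 to 3323.5 normalised counts in NDMA mice. Saline mice ran from 48.4 through 151.5 to 276.9. The ratio of mean counts, each plus 1, in NDMA over saline mice was 3.6 at month 10 and 0.46 at week 10. At week 10 it was 0.18 in males and 1.22 in females. Genes of cholesterol synthesis had medians of 0.115 at week 10 and -0.387 at month 10, where 21 of 23 lay below 0 and 8 had an unadjusted p below 0.05. Clock genes, which set daily rhythm, had medians of 0.063 and -0.465, with 13 of 17 below 0 at month 10 and 3 at an unadjusted p below 0.05. Whether these lists differed between the times was not tested as a list, and the hour of collection was not used here.

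Oncofetal and tumour associated genes numbered 30, of which 9 were abundant enough to test over both times, 7 lay above 0, the median was 0.377 and 5 had an unadjusted p below 0.05. Over all genes tested over both times, 8.13% had an unadjusted p below 0.05, 42.1% lay above 0 and the median was -0.045. DESeq2 called Ly6d of the oncofetal list. Of 33 genes of cell division and DNA replication, 10 were tested, 5 lay above 0 and 0 had an unadjusted p below 0.05.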
